A study of Mus musculus with 9 samples.

Results

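The 41 genes described here encode protein parts of the spliceosomal small nuclear ribonucleoproteins (snRNPs) and their relatives. They are the rows of the deposited gene table whose symbol starts with Snrp, is Snrnp followed by a number, starts with Lsm and a number, or names a subunit of the SF3A or SF3B complex. That rule picked 41 features out of 59445. All 41 also reached a normalized value of at least 10 in at least 4 of the 9 libraries, as did 15288 features in all. Their RNA was sequenced in bulk from liver macrophages, which a cell sorter had separated as F4/80+ CD11b+ cells out of the non-parenchymal fraction. The donors were male C57BL/6 mice given CCl4, a solvent that kills hepatocytes, once by the intraperitoneal route and sampled 24 hours later; the stated dose was 0.6 mg/kg. The 5 MAGL Mye-/- mice (libraries S8 to S12) carry a deficiency of MAGL, monoacylglycerol lipase. Of these, S9, S10 and S11 came from mice of 10 weeks, and S8 and S12 from mice of 11 weeks. The 4 MAGL fl/fl (WT) controls (S1, S3, S4 and S5) were all 11 weeks old. Every mouse received CCl4, so no untreated liver is included. The driver of the deletion, the cells it reaches, litters and batches are not stated in the labels, so p-values measure the spread between these libraries.

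The spliceosome removes introns from pre-mRNA. Each of its major snRNPs is a small nuclear RNA wrapped in proteins: U1, U2, U4 and U5 carry a ring of Sm proteins, whereas U6 carries a related ring of LSm proteins. U1 reads the 5′ splice site, U2 with its SF3A and SF3B partners grips the branch point, and the U4/U6.U5 tri-snRNP brings in the catalytic parts. A cytoplasmic LSm ring that contains Lsm1 instead of Lsm8 promotes mRNA decapping, and U7, a separate snRNP, trims the ends of histone mRNAs. Splicing operates in every cell with a nucleus.

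Library totals ran from 33383559 to 46489349 reads. Mgll, which encodes the targeted lipase, had 30.4, 46.6, 5.93, 42.7 and 0 normalized reads in Mye-/- S8 to S12, against 18.6, 0, 106 and 22.8 in the fl/fl libraries S1, S3, S4 and S5 (two-sided exact permutation p = 0.73), so it was too low to check the labels. The F4/80 and CD11b genes Adgre1 and Itgam were at 4685 or more and 41570.4 or more in every library. The 8 macrophage markers summed to 345377 to 444454 in Mye-/- and 484059.6 to 618796 in fl/fl, lower in every Mye-/- library although 6 of the 8 genes had a higher mean and 0 passed. The largest part was the feature shared by Lyz2 and Lyz1, at 143569.7 to 204782 in Mye-/- and 221529.5 to 422118.3 in fl/fl. The sum thus mainly describes that feature. Hepatocyte markers summed to 1472 to 12649 in Mye-/- and 761 to 2043 in fl/fl (13 of 15 genes in the table, 10 tested, all 10 higher in Mye-/-). Erythroid and platelet markers summed to 2593 to 6901 in Mye-/- and 5908 to 35204 in fl/fl (8 tested, 5 lower). Neutrophil markers summed to 17637 to 38411 in Mye-/- and 27103 to 48393 in fl/fl (11 of 11 in the table, 6 tested, 3 lower). The largest part of that sum was S100a8. Ly6g was at 0 in every library but fl/fl S3, at 1.19, and Elane, Ngp, Ltf and Camp were at 0 in most libraries. The highest hepatocyte sum was in Mye-/- S10 and the highest erythroid sum in fl/fl S3. The sums were 227 to 596 in Mye-/- and 192 to 696 in fl/fl for T, B and NK cells and 438 to 680.4 in Mye-/- and 442 to 1145 in fl/fl for liver endothelial and stellate cells, where Lrat was at 0 throughout. In these lists 0 genes passed the test, and the part of other cells in the results was not tested.

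Most of the 41 genes had lower means in Mye-/- macrophages, by small amounts, and none passed the test. In bulk RNA, fewer cells with a given transcript and less of it per cell cannot be told apart. The log2 fold change, Mye-/- minus fl/fl on log2(normalized value + 1), was below 0 (counted as lower throughout) for 34 genes and above 0 for 7, with a median of -0.24. Across all 15288 features tested it was below 0 for 45.4%, with a median of 0.058. With limma at an adjusted p under 0.05, 0 of the 41 were lower and 0 higher, where 0% of all features were called lower and 0.0196% higher. At an unadjusted p under 0.05, 9 of the 41 were lower (22%, against 4.13% of all features) and 0 were higher (6.38% of all features). The 9 became 5 among 11-week-old mice alone, 5 when adjusting for detected features and 6 with the length correction, within a range of 5 to 10 over 24 alternatives. Shares over all features are given here for the main fit only. The counts from the alternatives therefore have no like share beside them. In 6 genes (14.6%, against 1.6% of all features) every Mye-/- library lay below every fl/fl library: Snrpd3, Lsm4, Lsm6, Snrpa1, Sf3a1 and Snrnp200. In 0 genes did every Mye-/- library lie above every fl/fl library (1.7% of all features). Of the 7198 features with a mean of at least 500, which include 37 of the 41 genes and all those counted just above, 50.2% were below 0. At that level 7.18% had an unadjusted p under 0.05 and 2.65% lacked overlap in the lower direction. edgeR on whole reads called 0 of the 41 (0% of features lower and 0.0131% higher), and DESeq2 called 2 as lower, Snrpd3 and Lsm4, where it called 0.375% of features lower and 0.621% higher.

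**Figure D1:**
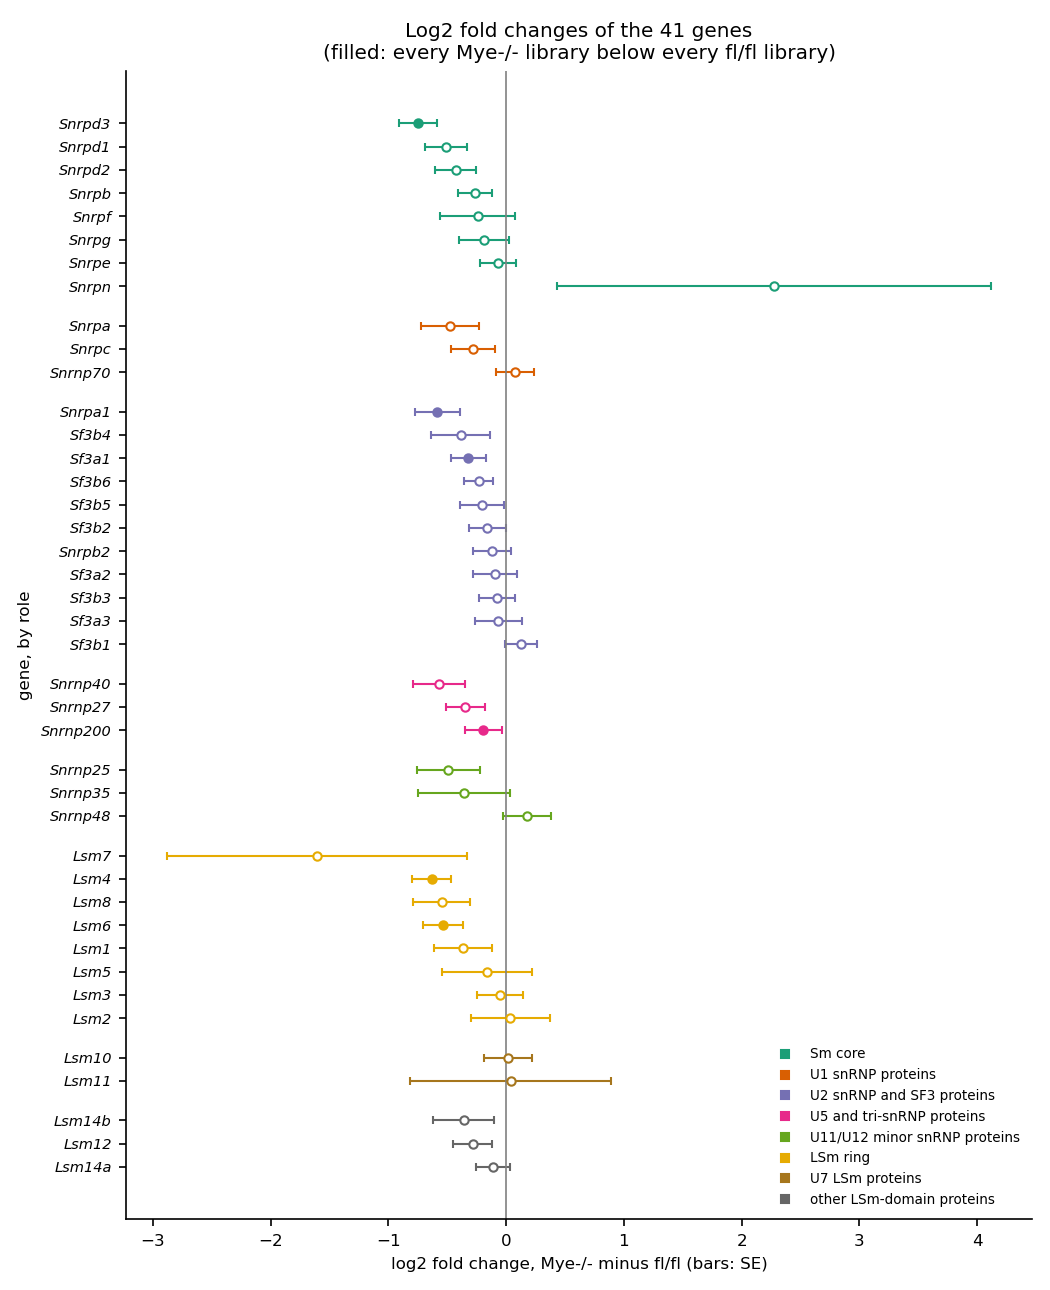
Log2 fold change (Mye-/- minus fl/fl, horizontal axis) with its standard error for each of the 41 genes, in rows grouped and coloured by role; filled points are the 6 genes whose Mye-/- libraries all lay below all fl/fl libraries. Most points lie left of 0, and the wide bars belong to Snrpn, Lsm7 and Lsm11, which had few reads.

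The Sm core is the ring of proteins shared by the U1, U2, U4 and U5 snRNPs. Of its 8 genes, 7 were lower in Mye-/- and 1, the scarce Snrpn, was higher, and the median log2 fold change was -0.25. In this list 0 passed. At an unadjusted limma p under 0.05, 3 were lower (37.5%). That share was 4.13% over all features and 7.18% over those with a mean of at least 500. The 3 were the Sm-D genes, whose products form the ring's D subunits, and whether they differ from the other Sm genes was not tested. Snrpd3, encoding SmD3 (chromosome 10, 75517549 to 75535465, plus strand, mm10), had 3391, 2307, 2835, 2040.3 and 2701 normalized reads in Mye-/- S8 to S12, against 4647, 4834, 4291 and 3833 in the fl/fl libraries S1, S3, S4 and S5. The highest Mye-/- library, S8, lay below the lowest fl/fl library, S5. Its means were 2655 ± 518 in Mye-/- and 4401 ± 441 in fl/fl (SD, n = 5 and 4), a log2 fold change of -0.75 ± 0.16 (SE; limma adjusted p = 0.163; DESeq2 adjusted p = 0.00971; edgeR adjusted p = 0.231). An exon of Gucd1 lies on the opposite strand of a Snrpd3 exon, and since the strand setting of the counting is not given in the sources used here, their reads cannot be told apart; the Gucd1 feature itself was at 350.4 ± 252 in Mye-/- and 509.5 ± 419 in fl/fl. Of the 41 genes 31 share no annotated exon sequence with another gene; the other 10 are Snrpd3, Snrpa1, Snrpa, Sf3b4, Snrpn, Sf3b2, Snrpf, Sf3a2, Sf3b3 and Lsm3, whose counts may include reads of a neighbour. Among 11-week-old mice alone, the Snrpd3 log2 fold change was -0.53 (limma adjusted p = 0.976), from 2 Mye-/- and 4 fl/fl libraries.

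Snrpd1, for SmD1, had 2682, 1722, 2118, 1714 and 1754 normalized reads in Mye-/- S8 to S12, against 2795, 3365, 2209 and 2965 in the fl/fl libraries S1, S3, S4 and S5. Mye-/- S8 overlapped the fl/fl range, and the other 4 lay below it. The log2 fold change was -0.51 ± 0.18 (SE, limma adjusted p = 0.332). Snrpd2, for SmD2, had 2721, 2287, 1985, 1937 and 2059 in Mye-/- and 2430.2, 3785, 3119 and 2587 in fl/fl, with the same S8 above part of the fl/fl range (-0.43 ± 0.17, adjusted p = 0.396). Snrpb, which encodes SmB and was the most abundant Sm transcript, had 8316, 7716, 8592, 10742 and 9744 in Mye-/- and 14147, 10122, 10179.9 and 9218 in fl/fl. The groups overlapped there, since Mye-/- S11 and S12 were above fl/fl S5, and fl/fl S1 stood well above the rest (-0.27 ± 0.15, adjusted p = 0.542). Without fl/fl S1 the log2 fold change of Snrpb was -0.13.

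The other ring members showed smaller differences. Snrpe averaged 3006 ± 500.1 in Mye-/- and 3121 ± 204 in fl/fl (log2 fold change -0.068 ± 0.15), Snrpf 752 ± 251 in Mye-/- and 853 ± 236 in fl/fl (-0.24 ± 0.32) and Snrpg 1106 ± 107 in Mye-/- and 1294 ± 360.5 in fl/fl (-0.19 ± 0.21), with limma adjusted p of 0.905, 0.823 and 0.795. Snrpf in Mye-/- S10, at 310.3, was far below the other 8 libraries. Snrpn, which encodes SmN, the tissue-restricted counterpart of SmB and an imprinted gene in mouse, was measured only in a long feature that also covers Ipw and Snurf. That feature had 5.07, 31.3, 37.3, 0 and 39.3 normalized reads in Mye-/- and 0, 0, 22.7 and 0.878 in fl/fl, at most 46 reads in a library, so it carried nearly none of the signal of this family and its fold change is not interpretable (limma adjusted p = 0.699).

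**Figure D2:**
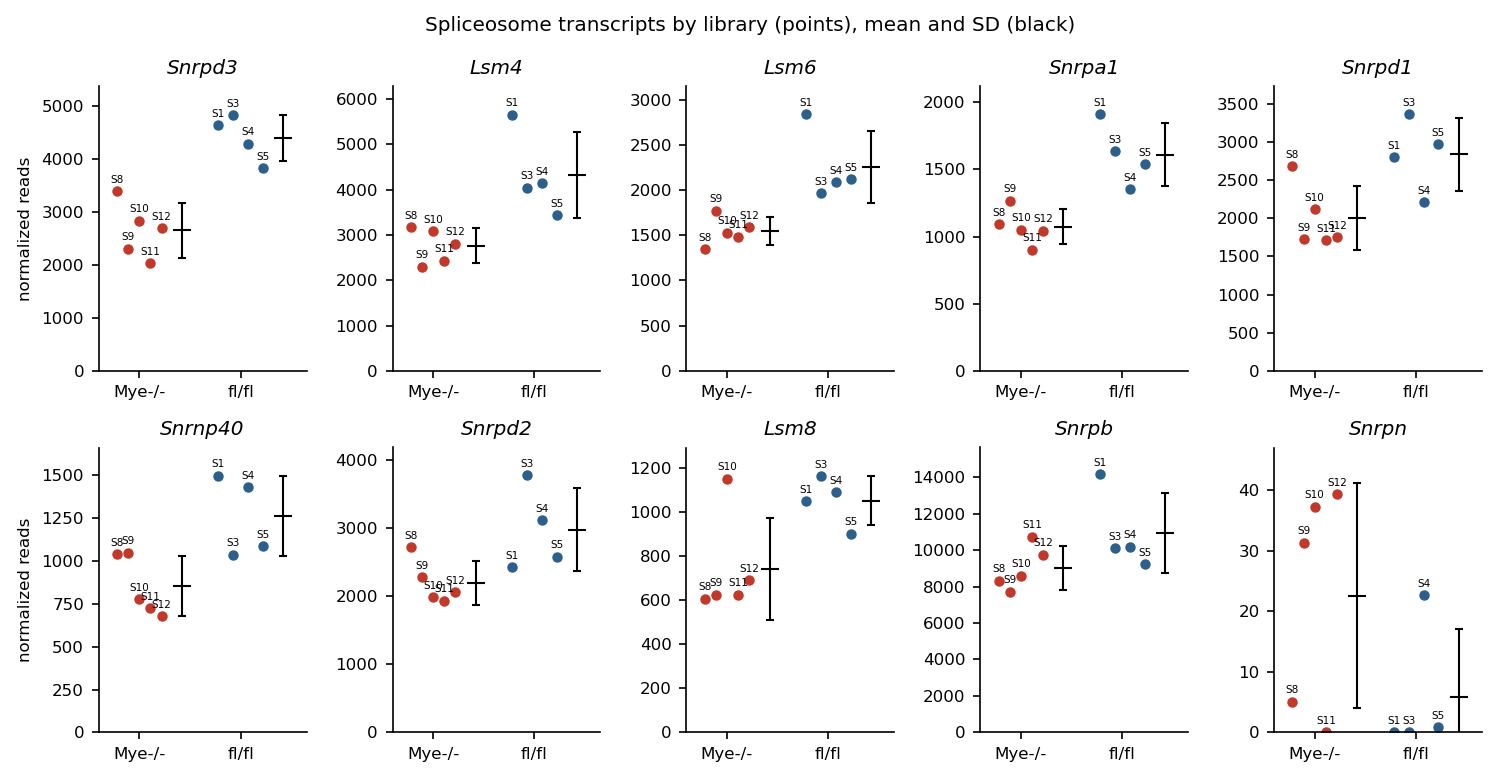
Normalized reads (vertical axis, from 0) in each library for the 8 genes with the smallest p and for the Sm genes with the highest and lowest mean, Mye-/- left and fl/fl right; points are libraries, black marks the mean and SD, and the SD bar of Snrpn in fl/fl is cut at 0. Snrpd3, Lsm4, Lsm6 and Snrpa1 show no overlap between the groups, whereas Lsm8 has 1 high Mye-/- library, S10.

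Of the 3 U1-specific genes, 2 were lower in Mye-/- and 1 higher, and none passed. Snrpa, for the A protein of U1, which binds a stem-loop of U1 RNA, averaged 903 ± 241 in Mye-/- and 1258 ± 323 in fl/fl (-0.48 ± 0.25, limma adjusted p = 0.507), with libraries from 628 to 1288 in Mye-/- and 856 to 1582 in fl/fl. Snrpc, for the C protein of U1, which helps U1 engage the 5′ splice site, averaged 1627 ± 287 in Mye-/- and 1979.6 ± 388 in fl/fl (-0.28 ± 0.19, adjusted p = 0.624), with a log2 fold change of -0.068 among 11-week-old mice alone and -0.16 without fl/fl S1. Snrnp70, for U1-70K, was among the most abundant transcripts of the family and close in both groups, at 17228 ± 2109.9 in Mye-/- and 16693 ± 4616 in fl/fl (0.075 ± 0.16, adjusted p = 0.898); its highest library was fl/fl S1, at 23275.

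The U2 snRNP proteins and the SF3A and SF3B subunits numbered 11, of which 10 were lower in Mye-/-, with a median of -0.16. In this list 0 passed. At an unadjusted limma p under 0.05, 2 were lower (18.2%, against 4.13% of all features and 7.18% of those with a mean of at least 500). Snrpa1, for the A′ protein of the U2 particle (chromosome 7, 66060336 to 66074587, plus strand), had 1093, 1266, 1052, 903 and 1045 normalized reads in Mye-/- S8 to S12, against 1913, 1633, 1353 and 1536 in the fl/fl libraries S1, S3, S4 and S5. All 5 Mye-/- libraries were below all 4 fl/fl libraries, the closest pair being Mye-/- S9 and fl/fl S4. The means were 1072 ± 130.3 in Mye-/- and 1609 ± 234 in fl/fl and the log2 fold change -0.58 ± 0.19 (limma adjusted p = 0.309; DESeq2 adjusted p = 0.173). Its partner in U2, Snrpb2, for the B″ protein, averaged 2804 ± 461 in Mye-/- and 3042 ± 415 in fl/fl (-0.12 ± 0.16).

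Among the 9 SF3 subunits 8 were lower and 1 higher, over a narrow span from -0.39 to 0.13. Sf3a1, the scaffold of SF3A, ranged over 2637 to 3559.9 in Mye-/- and 3622 to 4778 in fl/fl, without overlap (-0.32 ± 0.15, limma adjusted p = 0.458). Sf3a2 averaged 1672 ± 293 in Mye-/- and 1774 ± 268 in fl/fl, and Sf3a3 1751 ± 366 in Mye-/- and 1838 ± 458 in fl/fl, differences within the spread. Sf3b1, the large SF3B subunit that contacts the branch point and the most abundant of the 41 transcripts, was at 44704 ± 4441 in Mye-/- and 40857 ± 3044 in fl/fl (0.13 ± 0.13, adjusted p = 0.775). It was the 1 SF3 gene with a higher Mye-/- mean. Sf3b2 was at 11402 ± 1172 in Mye-/- and 13005 ± 3589.8 in fl/fl, with fl/fl S1 at 18288 above all others, and Sf3b3 at 3710.2 ± 719 in Mye-/- and 3868 ± 366 in fl/fl. The small subunits gave 849 ± 202 in Mye-/- and 1117 ± 304 in fl/fl for Sf3b4 (-0.39 ± 0.25), 2753 ± 616 in Mye-/- and 3164 ± 751 in fl/fl for Sf3b5 (-0.20 ± 0.19) and 6413 ± 327 in Mye-/- and 7571 ± 868 in fl/fl for Sf3b6, the p14 protein at the branch-point adenosine (-0.23 ± 0.13). Adjusted p for these 3 were 0.612, 0.74 and 0.536 (limma).

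The stretch upstream of the start site is shown for 4 genes of these particles: Snrpa1 and Sf3b6, which had lower means in Mye-/-, and Sf3b1 and Snrnp70, the abundant pair that did not. Sequences are RefSeq's (GRCm38.p6), 5′ to 3′ on the gene's strand, up to 250 bases before the start and outside annotated exons. Capitals mark matches on either strand to 6 motifs, namely the E-box CACGTG, the ETS motif CCGGAAG, the CCAAT box, the GC box GGGCGG and the longer NRF1 and YY1 motifs, none of which contains another.
Snrpa1, chr7:66060086-66060335, plus strand: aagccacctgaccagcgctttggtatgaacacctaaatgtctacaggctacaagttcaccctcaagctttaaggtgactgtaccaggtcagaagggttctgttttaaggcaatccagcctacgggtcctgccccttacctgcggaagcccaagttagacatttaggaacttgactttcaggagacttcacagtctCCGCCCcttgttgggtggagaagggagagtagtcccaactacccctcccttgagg
Sf3b6, chr12:4817358-4817543, plus strand: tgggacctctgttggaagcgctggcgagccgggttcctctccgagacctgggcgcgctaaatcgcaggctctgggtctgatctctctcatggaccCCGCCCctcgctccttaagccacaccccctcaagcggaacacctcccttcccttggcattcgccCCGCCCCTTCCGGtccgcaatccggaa
Sf3b1, chr1:55027482-55027728, minus strand: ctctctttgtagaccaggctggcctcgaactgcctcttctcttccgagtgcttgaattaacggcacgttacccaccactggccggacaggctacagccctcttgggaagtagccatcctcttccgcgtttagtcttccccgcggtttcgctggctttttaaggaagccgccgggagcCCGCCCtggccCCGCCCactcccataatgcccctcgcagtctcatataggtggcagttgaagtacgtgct
Snrnp70, chr7:45395743-45395992, minus strand: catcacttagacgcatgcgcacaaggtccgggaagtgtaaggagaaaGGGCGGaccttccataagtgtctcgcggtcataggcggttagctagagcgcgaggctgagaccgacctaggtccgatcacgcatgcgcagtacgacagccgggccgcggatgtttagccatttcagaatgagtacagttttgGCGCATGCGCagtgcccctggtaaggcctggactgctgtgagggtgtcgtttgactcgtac
Over the 250 upstream bases, the ETS letters were present in 12 of the 33 members with a RefSeq promoter (36.4%), against 14.7% of the 9017 promoters of tested genes. The holders were Lsm5, Sf3a1, Sf3a2, Sf3a3, Sf3b2, Sf3b3, Sf3b6, Snrnp200, Snrnp27, Snrpb2, Snrpc and Snrpg, with log2 fold changes from -0.35 to -0.066, none past the test. All were below 0, as were 34 of the 41 genes (82.9%). Members without the letters ranged widely, with Snrpd3 at -0.75 and Sf3b1 at 0.13 among them. The difference in the share of the ETS letters was not tested. Promoters were also picked in different ways, so the shares here are not strictly like for like. For members the one nearest the feature start was taken, and for all tested genes the first listed. The one taken for Snrpn lies 309952 bases from its feature start. The GC box was in 60.6% of members and 58.9% of all promoters, CCAAT in 30.3% and 36.8%, the E-box in 3.03% (Snrpa) and 8.76%, the NRF1 motif in 3.03% (Snrnp70) and 1.73%, and the YY1 motif in 0 of 33 and 0.699%. A match describes letters only. In the Sf3b6 stretch a GC box runs directly into an ETS match.

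All 3 genes of the U5 and tri-snRNP proteins were lower in Mye-/-, and none passed. Snrnp40, the U5 40-kDa WD-repeat protein, had 1040.0, 1049, 777, 726 and 679.9 normalized reads in Mye-/- S8 to S12, against 1498, 1038, 1431 and 1088 in the controls S1, S3, S4 and S5. Mye-/- S8 and S9 were level with fl/fl S3 and S5, and the other 3 Mye-/- libraries were lower (-0.57 ± 0.22, limma adjusted p = 0.388). Snrnp27 averaged 1569.7 ± 167 in Mye-/- and 1996 ± 206 in fl/fl (-0.35 ± 0.17, adjusted p = 0.476). Snrnp200, the Brr2 helicase that unwinds U4 from U6, ranged over 1619 to 1939.8 in Mye-/- and 1983 to 2109.7 in fl/fl, a narrow spread without overlap and with a small difference (-0.19 ± 0.16, adjusted p = 0.694). The 3 genes specific to the U11/U12 particle of the minor spliceosome, which removes a rare class of introns, differed among themselves. Snrnp25 averaged 634 ± 135 in Mye-/- and 896 ± 259 in fl/fl (-0.49 ± 0.27), Snrnp35 416 ± 168 in Mye-/- and 539 ± 244 in fl/fl (-0.36 ± 0.39) and Snrnp48 1316 ± 194 in Mye-/- and 1172 ± 242 in fl/fl (0.18 ± 0.20), with limma adjusted p of 0.536, 0.785 and 0.797. Among 11-week-old mice alone Snrnp35 had a log2 fold change of 0.23.

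The LSm ring genes Lsm1 to Lsm8 were lower in 7 of 8 cases, with a median of -0.45. In this list 0 passed. At an unadjusted limma p under 0.05, 3 were lower (37.5%, against 4.13% of all features and 7.18% of those with a mean of at least 500). Lsm4 (chromosome 8, 70673231 to 70678751, plus strand), a subunit of both the nuclear and the cytoplasmic ring, had 3171, 2298, 3090.0, 2436 and 2809 normalized reads in Mye-/- S8 to S12, against 5653, 4046, 4142 and 3436 in the fl/fl libraries S1, S3, S4 and S5. The groups did not overlap, with Mye-/- S8 the highest of its group and fl/fl S5 the lowest of the other. The means were 2761 ± 387 in Mye-/- and 4319 ± 943 in fl/fl (SD, n = 5 and 4), a log2 fold change of -0.63 ± 0.17 (limma adjusted p = 0.218; DESeq2 adjusted p = 0.0458; edgeR adjusted p = 0.29). Lsm6 (chromosome 8, 78804868 to 78821152, minus strand), also in both rings, had 1343, 1771, 1528, 1486 and 1586 in Mye-/- libraries and 2842, 1963, 2091 and 2122 in the controls. Again every Mye-/- library was lower, and fl/fl S1 stood above the other controls (-0.54 ± 0.17, limma adjusted p = 0.297).

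Lsm8 and Lsm1 distinguish the nuclear ring, which binds U6, from the cytoplasmic decay ring. Lsm8 had 607, 625, 1150.4, 625 and 690.1 in Mye-/- S8 to S12, against 1049, 1163, 1088 and 901 in the controls. Mye-/- S10 lay within the fl/fl range, and the other 4 lay below it (-0.55 ± 0.24, limma adjusted p = 0.451). Without S10 the log2 fold change was -0.72 (limma adjusted p = 0.451); S10 was also the library with the most hepatocyte RNA, whose part in this was not tested. Lsm1 averaged 808 ± 155 in Mye-/- and 1049.6 ± 278 in fl/fl (-0.36 ± 0.25, adjusted p = 0.628), with 3 of 5 Mye-/- libraries inside the fl/fl range. Its log2 fold change was -0.13 among 11-week-old mice alone and -0.23 without fl/fl S1. The remaining shared subunits were closer. Lsm2 averaged 657 ± 169 in Mye-/- and 687 ± 354 in fl/fl (0.036 ± 0.33), Lsm3 2349 ± 765 in Mye-/- and 2367 ± 278 in fl/fl (-0.055 ± 0.20) and Lsm5 511 ± 218 in Mye-/- and 536 ± 162 in fl/fl (-0.16 ± 0.38). For Lsm2 the mean was lower but the mean of the log2 values higher in Mye-/-. Lsm3 in Mye-/- S11, at 3684, was the highest of all 9. Lsm7 was the scarcest ring transcript, at 0 to 180.0 in Mye-/- and 59.7 to 223 in fl/fl, and its log2 fold change of -1.60 ± 1.27 rests on Mye-/- S12, where it was at 0; without that library it was -0.27.

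The 2 LSm proteins of the U7 particle showed no lower means in Mye-/-. Lsm10 averaged 1143 ± 129 in Mye-/- and 1140.5 ± 222 in fl/fl (0.017 ± 0.20, limma adjusted p = 0.986), while Lsm11 was scarce, at 22.4 to 324 in Mye-/- and 46.6 to 145 in fl/fl, with the highest value in S10. The proteins with an LSm domain outside the rings were lower in 3 of 3 cases, none past the test. Lsm12 averaged 2263 ± 168 in Mye-/- and 2791 ± 536 in fl/fl (-0.29 ± 0.16). Lsm14a and Lsm14b, whose products repress translation and gather in P-bodies, averaged 3653 ± 494 in Mye-/- and 3935 ± 310.2 in fl/fl (-0.11 ± 0.14) and 726 ± 202 in Mye-/- and 905 ± 122 in fl/fl (-0.36 ± 0.26).

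Levels differ far more between these genes than between genotypes. Per kilobase of the longest coding GENCODE M21 transcript, the order among Sm genes in both groups began with Snrpb, at 7771 ± 1043 in Mye-/- and 9403 ± 1893 in fl/fl normalized reads per kilobase, followed by Snrpe, at 4493 ± 748 in Mye-/- and 4665 ± 306 in fl/fl, and Snrpd1, at 2329 ± 487 in Mye-/- and 3302 ± 559 in fl/fl. Snrpd2 followed at 1548 ± 227 in Mye-/- and 2099 ± 431 in fl/fl. Snrpg, at 1049 ± 101 in Mye-/- and 1227 ± 342 in fl/fl, Snrpd3, at 874 ± 171 in Mye-/- and 1449.7 ± 145 in fl/fl, and Snrpf, at 874 ± 292 in Mye-/- and 991 ± 274 in fl/fl came after these. Their proteins are present in equal numbers in the ring, but the transcript chosen sets the length, which for Snrpd3 is 3036 bases, so these levels carry that choice. In SF3B, Sf3b1 led with 7216 ± 717 in Mye-/- and 6595 ± 491 in fl/fl per kilobase and Sf3b6 followed with 5435 ± 277 in Mye-/- and 6416 ± 735 in fl/fl, while Sf3b4 was lowest at 444 ± 105 in Mye-/- and 583 ± 158 in fl/fl.

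Averaged by library, the better-measured genes were lower in each of the 5 Mye-/- libraries than in any control. The genes were chosen with earlier results of these data known, and 32 of these 37 were lower. The averages thus describe the same differences again and are no separate support. For the 37 genes with a mean of at least 500, the mean log2 value centred on each gene's own mean was -0.11, -0.20, -0.10, -0.037 and -0.13 in Mye-/- S8 to S12, against 0.29, 0.14, 0.080 and 0.068 in the controls S1, S3, S4 and S5. Every Mye-/- library lay below every fl/fl library, with fl/fl S1 farthest out and Mye-/- S11 nearest to the controls. With the 4 scarcer genes included the groups overlapped, since over all 41 genes Mye-/- S10 was at 0.046 and fl/fl S5 at 0.031. Single genes moved more than the mean. Without fl/fl S1 the log2 fold change of 15 of the 41 shrank by over 1.5 times or changed sign and that of 4 grew by over 1.5 times, and among 11-week-old mice alone these numbers were 12 and 8. The mean centred log2 value over all 7198 features with a mean of at least 500 stayed between -0.023 and 0.010. Proliferation genes had summed levels of 7024 to 9437 in Mye-/- and 8255 to 10531 in fl/fl (12 in the table, 11 tested, 8 lower, median -0.46, 0 past the test). Most of that sum was Pcna, at 5320.7 to 7623 in Mye-/- and 5250.6 to 6866.5 in fl/fl (log2 fold change -0.016). Between 15614 and 16802 features were detected per Mye-/- library and between 14240 and 16385 per fl/fl library. The part of proliferation, feature number or cell makeup in these values was not tested.

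**Figure D3:**
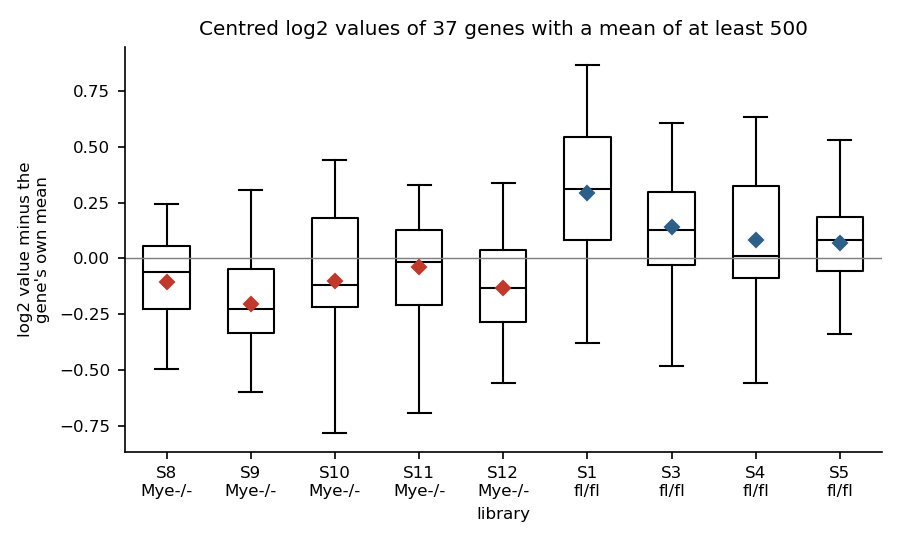
Log2 value minus the gene's own mean over the 9 libraries (vertical axis) for the 37 genes with a mean of at least 500, by library, Mye-/- left and fl/fl right; boxes show the median and quartiles over genes, whiskers reach the farthest gene within 1.5 box heights, genes beyond the whiskers are not drawn, and diamonds mark the mean. The diamonds of S8 to S12 all lie below 0, and those of S1, S3, S4 and S5 above 0.

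Transcript length moved with the fold change across the 11419 tested features with a transcript (Spearman's rho 0.21), and more so among well-measured ones. Among features with a mean of at least 500, those with a transcript of up to 1000 bases had a median log2 fold change of -0.22 (429 features, 81.1% lower, 22.8% lower at an unadjusted p under 0.05). Those of 1000 to 2000 bases had -0.13 (1355 features, 69.8% lower, 14.7%), and those above 2000 bases had 0.060 (4955 features, 41.9% lower, 3.87%). The 37 snRNP, LSm and SF3 genes at that level had -0.20 (10 genes, 8 lower, 3 at an unadjusted p under 0.05), -0.28 (13 genes, 11 lower, 3) and -0.20 (14 genes, 13 lower, 3) in the same length classes. Members classed as short thus had values like those of other short transcripts. Those classed as long had lower values than the median of long transcripts. Neither difference was tested. The classes follow the longest coding GENCODE transcript, which can exceed the measured feature. Sf3b5, whose feature runs from 13008450 to 13009182 on chromosome 10, was classed by a transcript of 3841 bases. Snrpd3 at 3036 bases and Lsm6 at 3792 bases are in the long class by the same choice. Spearman's rho between log2 fold change and length was 0.06 across the 37 genes. It was 0.39 across the 6739 features with a transcript and a mean of at least 500. For these sets rho with GC content was -0.17 and -0.09. Over all 41 genes rho with length was 0.15. Genes share the 9 libraries and are not independent. With each library's length trend removed, an alternative added after the data were seen, the median of the 41 was -0.17 with 32 lower, against a median of 0.025 over all features with a transcript.

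**Figure D4:**
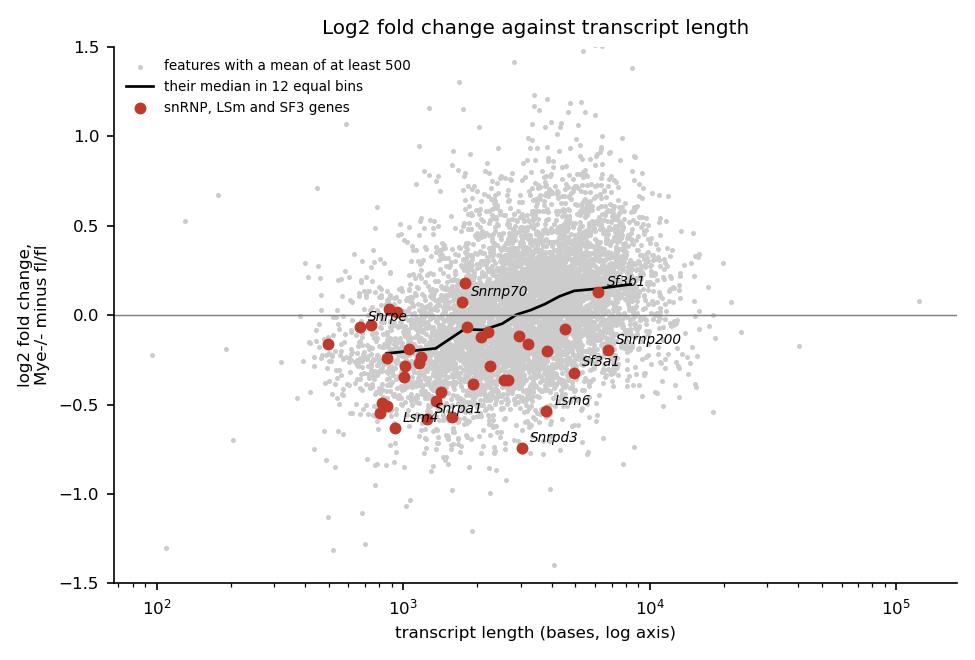
Log2 fold change (Mye-/- minus fl/fl, vertical axis) against transcript length (log axis) for 6739 features with a mean of at least 500 (grey; 13 beyond 1.5 in either direction are not drawn), their median in 12 bins of equal size (black) and the 37 snRNP, LSm and SF3 genes (red). The black line climbs from below 0 for short transcripts to above 0 for long ones, and Snrpd3, Lsm6, Sf3a1 and Snrnp200 lie below it. Lengths are those of the longest GENCODE transcript, coding where there is one, so positions along the axis carry that choice.

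The 5 other genes whose log2 values followed the mean of the 41 most closely over the 9 libraries, among 6726 named genes that averaged 500 or more, were all mitochondrial. Smdt1, the EMRE subunit of the mitochondrial calcium uniporter, had Pearson's r = 0.953 and averaged 4418 ± 447 in Mye-/- and 6283 ± 946 in fl/fl. Sdhb, of complex II, had r = 0.951, Ndufa2 and Ndufb7, of complex I, had 0.948 and 0.934, and Chchd2, a protein of the intermembrane space, had 0.941. Their log2 fold changes were -0.50 ± 0.14, -0.39 ± 0.16, -0.41 ± 0.14, -0.55 ± 0.15 and -0.45 ± 0.14, none past limma's threshold (adjusted p = 0.218 to 0.405). These correlations include the difference between genotypes and are given as a description. The mean they follow weights all 41 genes alike, including the scarce Snrpn, Lsm7 and Lsm11. In Mye-/- S10 it was 0.046, against -0.10 over the 37 genes with a mean of at least 500. In Mye-/- S11 it was -0.18, against -0.037. Which genes follow the mean of those 37 most closely was not examined.

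Of 97 tested genes in 7 further lists, 53 were lower and 44 higher, with a median of -0.03, and 0 passed in either direction. At an unadjusted p under 0.05, 4 were lower (4.12%, against 4.13% of all features) and 5 higher (6.38% of all features). The groups lacked overlap in 1 gene in the lower direction (1.03%, against 1.6% of all features) and in 2 in the higher direction (1.7% of all features). These counts are near or below the shares over all features. For assembly of snRNPs by the SMN and PRMT5 complexes, 10 of 16 were lower (median -0.15). Gemin2, which holds the Sm ring during assembly, averaged 262 ± 115 in Mye-/- and 452 ± 169 in fl/fl (-0.86 ± 0.45, limma adjusted p = 0.519), the feature shared by Vps53, Gemin4 and Glod4 averaged 3857 ± 658 in Mye-/- and 4962 ± 546 in fl/fl, and the one shared by Wdr77 and Ovgp1 506 ± 88.4 in Mye-/- and 347 ± 87.0 in fl/fl. Other U5 and tri-snRNP proteins were lower in 11 of 15 (median -0.085), with Nhp2l1, a U4-binding protein, at 1882 ± 125 in Mye-/- and 2574 ± 824 in fl/fl, Usp39 at 1084 ± 256 in Mye-/- and 1445 ± 199 in fl/fl and Prpf4 at 545 ± 75.2 in Mye-/- and 370.0 ± 101 in fl/fl.

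U2 auxiliary and branch-point factors were lower in 6 of 12 (median -0.0017). Ddx46, the Prp5 helicase that acts with SF3B, was at 2561 ± 337 in Mye-/- and 1793 ± 169 in fl/fl (0.51 ± 0.16, limma adjusted p = 0.295). It was higher in every Mye-/- library than in any fl/fl library, as were 1.7% of all features. Rbm17 was at 2864 ± 248.9 in Mye-/- and 3781 ± 1373 in fl/fl and Puf60 at 2261 ± 409 in Mye-/- and 2741 ± 258 in fl/fl. Prp19 complex and catalytic-step genes were lower in 13 of 23 (median -0.13), with Aqr, an intron-binding helicase, at 414 ± 166 in Mye-/- and 160.2 ± 63.7 in fl/fl, Cdc40 at 1390.1 ± 92.4 in Mye-/- and 1015 ± 150.4 in fl/fl without overlap, and Cdc5l at 2706 ± 117 in Mye-/- and 3549 ± 1071 in fl/fl. The exon junction complex, which marks spliced junctions, was lower in 6 of 9 (median -0.13), with Rbm8a at 2679 ± 409 in Mye-/- and 3706 ± 1451 in fl/fl, Magoh at 3404 ± 573 in Mye-/- and 4283 ± 861 in fl/fl and Upf3b at 253 ± 51.2 in Mye-/- and 407 ± 166 in fl/fl. Decapping partners of the Lsm1-7 ring were higher in 6 of 8 (median 0.31), with Xrn1, the 5′ to 3′ exonuclease, at 635 ± 54.6 in Mye-/- and 436 ± 202 in fl/fl, Patl1 at 2082 ± 214 in Mye-/- and 1701 ± 1084 in fl/fl and Ddx6 at 3008 ± 314 in Mye-/- and 2532 ± 966 in fl/fl. U1-associated and minor spliceosome genes were higher in 9 of 14 (median 0.11), with Tia1 at 1118 ± 152 in Mye-/- and 775 ± 265 in fl/fl, Luc7l at 3085 ± 556 in Mye-/- and 2391 ± 118 in fl/fl and Zmat5 at 731 ± 256 in Mye-/- and 1086 ± 154 in fl/fl. Several of these differences moved by over 1.5 times without fl/fl S1. Without it the log2 fold change was -0.12 for Rbm17 (-0.34 with it), -0.16 for Cdc5l (-0.35 with it), -0.21 for Nhp2l1 (-0.40 with it), -0.17 for Rbm8a (-0.41 with it). It was likewise 0.24 for Patl1 (0.48 with it), -0.0054 for Ddx6 (0.36 with it), 0.35 for Tia1 (0.59 with it) and -0.38 for Upf3b (-0.61 with it). No test was made of one list against another.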

How the data were processed

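The deposited values are a signal, namely read counts scaled by the authors with DESeq size factors, per the file headers; no log or length correction was applied. FastQC, STAR 2.4.0, Picard, SAMtools and mm10 are named in the submitters' processing notes, and the headers give FAST DB gene models. The counting tool, strand setting and duplicate handling are not given in the sources used here. Every nonzero value was a whole multiple of its column's smallest value within 0.01 reads (100% in each library), which gave whole reads for the count models. Between 66.1% and 68.3% of nonzero counts under 1000 were even, for which no reason is given, so reads may not be independent molecules.

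In R 4.3.3, limma 3.58.1 was fitted with a mean-variance trend to log2(value + 1), 5 Mye-/- against 4 fl/fl, two-sided, on the 15288 features with at least 10 in at least 4 libraries, Benjamini-Hochberg adjusted over all of them at 0.05. edgeR 4.0.16 and DESeq2 1.42.0 on whole reads were alternatives. The fit was also run on simulated counts with known fold changes. Those counts were drawn independently, without the excess of even counts described above. That run therefore does not show how the p-values behave on these data. The members and lists were chosen with earlier results of these data known. Every member is named; values in every library are given for the 8 with the smallest p and the Sm genes with the highest and lowest mean, and 3 genes with the smallest p are named per further list. Transcript lengths, GC content and overlaps come from GENCODE M21 (GRCm38), matched by symbol for 41 of 41 members and 11419 of 15288 features. Protein sequences were not used here.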

Additional observations from a re-analysis of the deposited data

Results flagged for a closer look

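In 8 of the 134 groups examined (each named gene in each genotype), 1 library lay so far from the others of its genotype that its gap exceeded Dixon's critical value; chance gives about 1 in 20. Mye-/- S10 stood apart for a pair of genes. Lsm8 was at 1150.4 normalized reads there, with the other 4 Mye-/- libraries from 607 to 690.1, and Snrpf was at 310.3, with the others from 787 to 907. Lsm3 was at 3684 in Mye-/- S11, with the others from 1857 to 2241. Cdc5l was at 2912 in Mye-/- S8, with the others from 2626 to 2680.1. Snrnp25 was at 1281 in fl/fl S3, with the other 3 fl/fl libraries from 732 to 819. Rbm8a was at 5879 in fl/fl S1, with the others from 2875 to 3054. The feature of Vps53, Gemin4 and Glod4 was at 4152 in fl/fl S5, with the others from 5168 to 5348. The feature that holds Snrpn was at 22.7 in fl/fl S4, with the others from 0 to 0.878.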

How the results depend on the processing

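The median log2 fold change of the 41 genes stayed below 0 in all 24 alternatives, from -0.28 to -0.17, with 29 to 36 genes lower; leaving out each library in turn gave -0.28 to -0.19. The number past the threshold was 0 in each direction in 23 alternatives, leaving out each library included (0 to 0), and 2 lower with DESeq2, namely Snrpd3 and Lsm4; the cause was not tested. DESeq2 also called Smdt1 and Ndufb7, at -0.51 (adjusted p = 0.0458) and -0.55 (adjusted p = 0.0458), with Snrpd3 at -0.73 (adjusted p = 0.00971) and Lsm4 at -0.65 (adjusted p = 0.0458). The smallest adjusted p among the 41 was 0.00971 to 0.976. The difference between the median of the 41 and that of all features was -0.36 to -0.20. The detected-feature covariate, the length correction and the fit without fl/fl S1 and S3 were added after the data were seen.

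Of 1598 values of named genes, 60 changed sign, each of them in a gene whose call did not pass, and 24 of the 41 genes never did. Outside single left-out libraries these were with quantile normalization -0.0016 for Lsm10 and -0.19 for Lsm11, then adjusting for age and among 11-week-old mice alone 0.23 for Snrnp35, 0.029 for Lsm14a, 0.099 for Snrpf, -0.049 for Snrnp70, -0.061 for Lsm2 and -0.21 for Lsm11, then with edgeR -0.052 for Lsm2, then with DESeq2 -0.066 for Lsm2, then adjusting for detected features -0.047 for Snrnp48, 0.014 for Sf3a2, 0.087 for Snrpe and 0.14 for Lsm3, then with the length correction -0.015 for Sf3b1, 0.16 for Snrpe, 0.090 for Lsm5, 0.026 for Sf3a3, 0.16 for Lsm3 and -0.11 for Lsm11, then without fl/fl S1 and S3 together 0.0043 for Sf3b5, 0.026 for Sf3b2, 0.027 for Snrpb2, 0.019 for Snrpf, 0.088 for Sf3a3, 0.073 for Lsm3, -0.0068 for Lsm10 and -0.16 for Patl1. Leaving out each library in turn, the values ran from -0.16 to 0.093 for Sf3a3, -0.17 to 0.019 for Sf3a2, -0.23 to 0.018 for Lsm3, -0.43 to 0.52 for Lsm11, -0.38 to 0.054 for Snrpf, -0.19 to 0.33 for Lsm2, -0.11 to 0.12 for Lsm10, -0.35 to 0.15 for Lsm5, -0.26 to 0.017 for Sf3b2, -0.0054 to 0.50 for Ddx6 and -0.024 to 0.25 for Snrnp70. The cause of these changes was not tested. No paired analysis was possible because the groups share no replicate numbers. Depth limits Snrpn, Lsm7 and Lsm11, which had at most 46, 254 and 382 reads in a library.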
